A study of Mus musculus with 10 samples.

Results

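The genes examined were 44 matrix protease and inhibitor genes of the mouse, 21 matrix metalloproteinases (Mmp), 4 tissue inhibitors of metalloproteinases (Timp) and 19 Adamts proteases, taken by symbol from the 52636 genes of a table of raw counts. All 44 were found in the table. They were measured by polyA RNA sequencing in 10 mouse melanomas, all on the genotype BrafCA;Cdkn2af/f, that is, with a Cre-dependent oncogenic Braf allele and floxed copies of the tumour suppressor locus Cdkn2a. To this genotype 6 tumours add Arf6Q67L, a permanently active form of the GTPase ARF6. The remaining 4 tumours lack it and were the controls. The sources used here name neither the promoter that drives Cre nor the age of the mice, and they do not say whether any tumours came from the same animal.

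Matrix metalloproteinases are zinc enzymes that cut collagens, laminins, fibronectin and growth factor precursors outside the cell. Most are secreted as inactive precursors, while the membrane-type members sit on the cell surface, where MMP14 also activates pro-MMP2. The 4 TIMP proteins bind the active site of these enzymes, and TIMP3 also inhibits several ADAMTS proteases, which trim procollagens and cleave large proteoglycans such as versican and aggrecan. In melanoma these enzymes are studied for their part in invasion and vessel growth, and they are made by tumour cells as well as by fibroblasts, macrophages and neutrophils.

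Library totals ran from 28635414 to 40869091 counts. Arf6 itself did not separate the genotypes, with 74.7 to 130 CPM (counts scaled to library size with TMM factors) in Arf6Q67L tumours and 68.6 to 107 CPM in controls. The sources used here do not say whether reads of the Arf6Q67L allele were counted for this gene. Control 4 lay farthest from the other tumours on the first principal component, which held 25.8% of the variance. The melanocyte markers Tyr and Dct, which encode pigment enzymes, were at 0 counts in all 10 tumours, and 5 of the 7 melanocyte markers stayed under 1 CPM in every tumour. Mitf, the pigment cell transcription factor, was the only one of the 7 that stood above 10 CPM in every tumour, at 11.1 to 26.1 CPM. Markers of other cell types differed between tumours, and in bulk tissue fewer cells of a type and less RNA per cell cannot be told apart. The summed level of 10 macrophage markers was 1069 to 2193 CPM in Arf6Q67L tumours and 1686 to 4497 CPM in controls, and that of 7 T cell markers 13.4 to 80 CPM and 26.6 to 288 CPM, with controls 2 and 4 highest for both lists. The 8 fibroblast markers summed to 4757 to 8283 CPM and 4228 to 8064 CPM, and control 4, lowest for these, was the highest tumour for the skeletal muscle (894 CPM) and adipocyte (186 CPM) sums. Of the 7 mast cell markers, 7 had a positive log2 fold change (Arf6Q67L over control), at a median of 3.03. DESeq2 called 5 of them higher (0.871% of all genes were) and edgeR 0. Their sum was 60.2 to 1038 CPM in Arf6Q67L tumours and 18.8 to 97.5 CPM in controls, highest in Arf6Q67L tumours 6 (1038 CPM) and 2 (459 CPM), and the groups overlapped.

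Timp1, Timp2, Mmp3, Mmp2, Mmp10, Timp3, Mmp14 and Adamts1 were the 8 genes of highest level per kilobase of exon, the scale on which levels are compared between genes here. Timp1 stood at 666 CPM per kilobase on average over the 10 tumours, Timp2 at 211, Mmp3 at 192 and Mmp2 at 167. Mmp10 followed at 119, Timp3 at 82.7, Mmp14 at 67.9 and Adamts1 at 47.6 CPM per kilobase. The mean levels of Timp2, Mmp3 and Mmp2 lay closer to each other than the range of any of them over tumours, which was 122 to 324 for Timp2, 22.5 to 529 for Mmp3 and 45.03 to 275 CPM per kilobase for Mmp2. At the other end, 8 genes were under 1 CPM in every tumour. The 7 that did not pass the filter on low counts were Mmp20, the enamel protease, Mmp21, Mmp24, Adamts13, which cleaves von Willebrand factor and is made mainly in liver, Adamts17, Adamts18 and Adamts19, and 4 of these 7 had at most 3 reads in any library. The remaining 37 genes were tested.

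**Figure D1:**
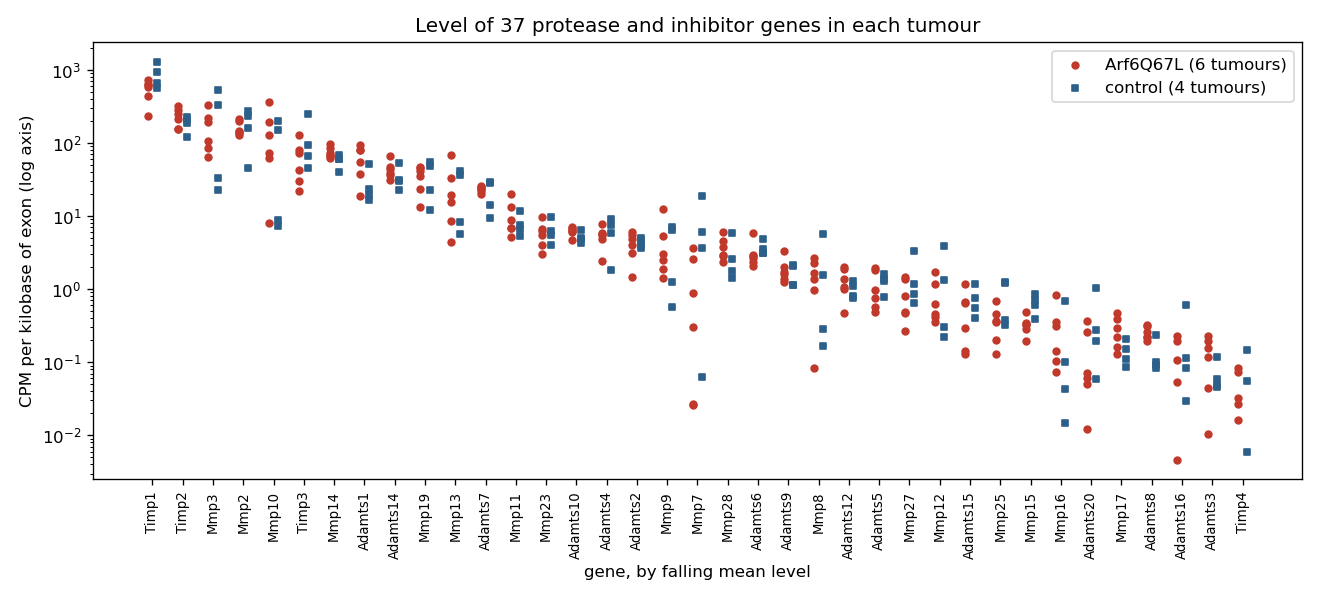
Level of the 37 tested genes in each tumour, in CPM per kilobase of exon on a log axis, with genes ordered by falling mean; red circles are 6 Arf6Q67L tumours and blue squares 4 controls, and tumours at 0 counts (Timp4, Adamts16) are not drawn. Timp1 is at the top with a mean of 666 CPM per kilobase, and for every gene the ranges of the groups overlap.

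The main comparison asked how tumours with active ARF6 differ from those without it. With edgeR's quasi-likelihood test and adjustment over 17286 genes, 0 of the 37 tested genes passed the adjusted threshold of 0.05 in either direction (over all genes, percent called 0). Nor did any pass in DESeq2, which called 0.871% of all genes higher and 1.32% lower (2.2% together), or in limma-voom. An unadjusted p below 0.05 was reached by 4 genes with higher and 1 with lower levels in Arf6Q67L tumours, which is 13.5% of those tested, against 11.7% of all genes (4.65% higher and 7.05% lower). The share is near that of all genes. The groups separated for 0 of the 37 genes, against 2.44% of all genes (1.15% higher and 1.28% lower). Log2 fold changes (Arf6Q67L over control) had a median of -0.05 over these genes and of -0.002 over all genes, with 17 positive and 20 negative. By family, 8 of 18 tested Mmp genes, 1 of 4 Timp genes and 8 of 15 Adamts genes were positive, at medians of -0.06, -0.55 and 0.19.

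**Figure D2:**
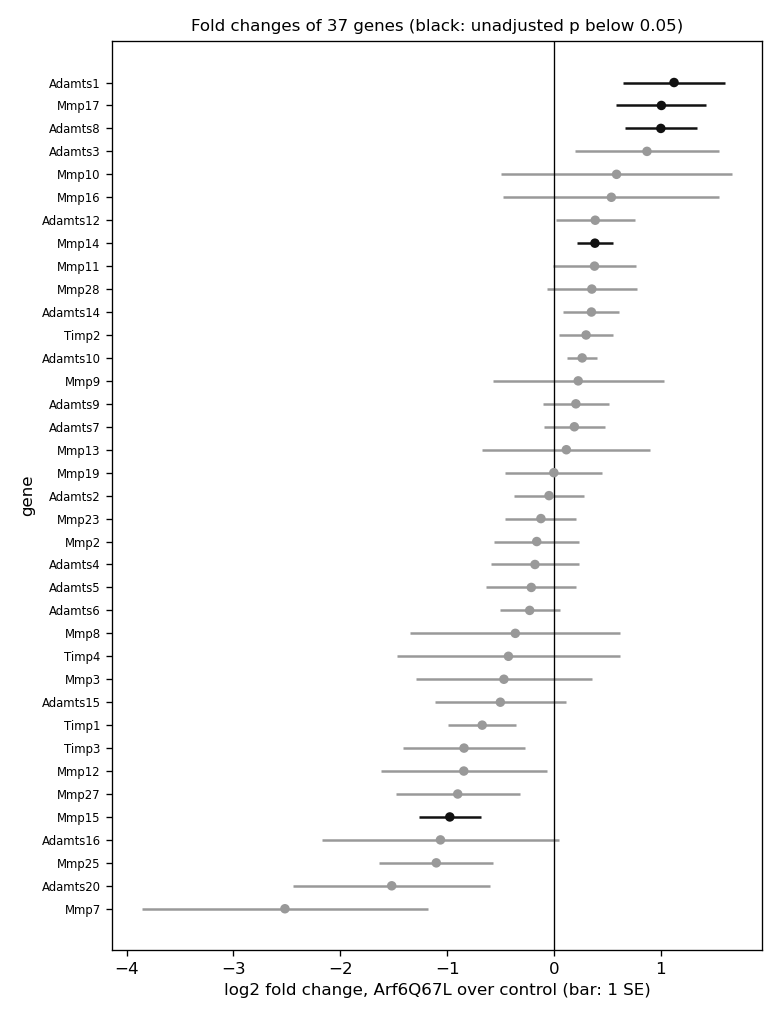
Log2 fold change of Arf6Q67L over control for each of the 37 tested genes, ordered by size, with bars of 1 SE from edgeR; black marks an unadjusted p below 0.05 and grey the rest. Values run from -2.52 for Mmp7 to 1.12 for Adamts1, and no gene passed after adjustment over all genes.

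Spread between tumours was wide in this set. The highest tumour was more than 10 times the lowest for 14 of the 37 genes (37.8%), against 11.7% of all tested genes, and the median ratio of highest to lowest was 5.41 against 2.17. Among genes with a mean of at least 10 CPM, it was 5 of 23 (21.7%) against 5.87%. Of the families, 9 of 18 Mmp, 2 of 4 Timp and 3 of 15 Adamts genes were past that ratio. These ratios are a description of 10 tumours, taken on log2 CPM with a prior count of 2, and low counts raise them.

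**Figure D3:**
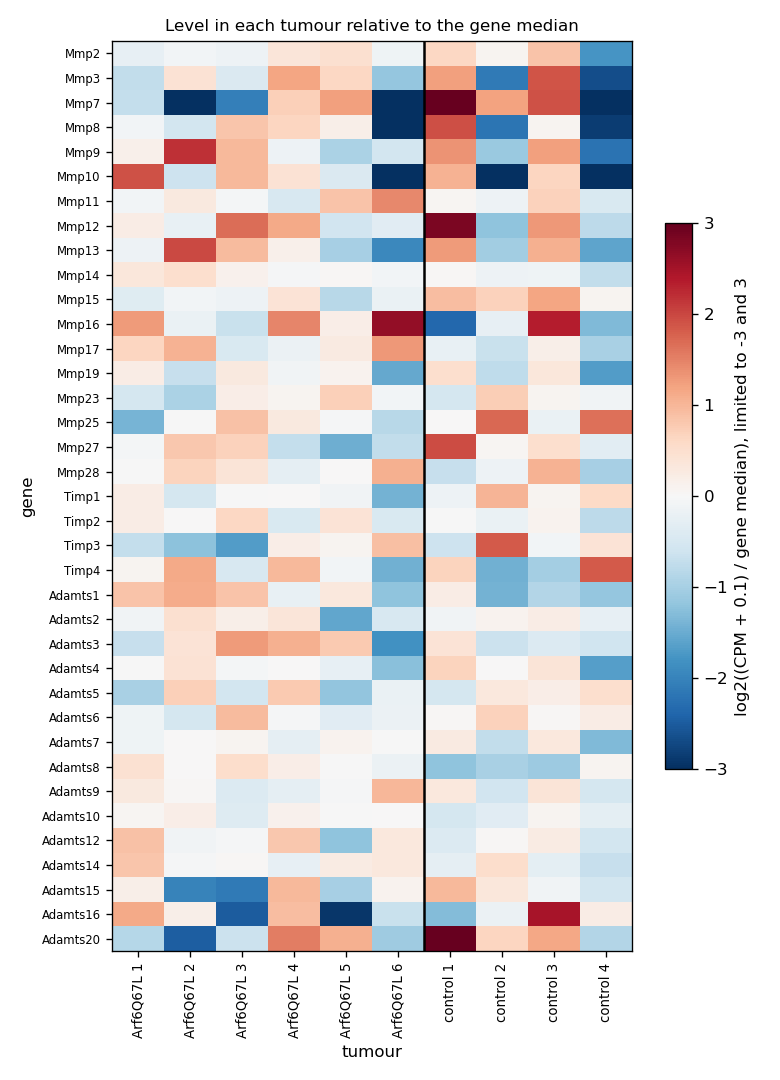
Heat map of the 37 tested genes (rows, by family) in 6 Arf6Q67L and 4 control tumours (columns, split by the black line); colour is log2 of CPM plus 0.1 over the gene median, limited to -3 and 3. The columns of control 2, control 4 and Arf6Q67L tumour 6 are blue in Mmp3, Mmp8, Mmp10 and Mmp13, while control 2 is red in Timp1 and Timp3.

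Several of the genes with the widest spread lay on chromosome 9, where 8 of the Mmp genes form a cluster on the plus strand between 7272514 and 7699585 (GRCm38), 427 kb in length: Mmp13, Mmp12, Mmp3, Mmp10, Mmp8, Mmp27, Mmp20 and Mmp7 in that order. It holds the stromelysins MMP3 and MMP10, which cut many matrix proteins and activate other MMPs, the collagenases MMP8 and MMP13, macrophage elastase (MMP12) and matrilysin (MMP7). Mmp1b, which is outside the set, overlaps Mmp12 on the other strand, so the list does not hold every Mmp gene of this stretch. Several genes of this cluster are known targets of the transcription factor AP-1. The AP-1 motif, written TGACTCA or TGAGTCA (each is the other's reverse complement, so both strands are covered), was therefore searched in RefSeq promoter windows (GRCm38.p6) of 250 bases before to 50 after each start. Windows were matched for 30 of the 44 genes. The motif was found in 5 of 8 cluster genes and in 0 of the 22 others with a window, against 5.20% of all 32851 windows and 5.95% of genes. The 100 bases before the start are shown for the 5 genes with a match, 5′ to 3′, with the motif in capitals, because these promoters share it at a similar place.
Mmp13 (chr9:7272414-7272513, + strand): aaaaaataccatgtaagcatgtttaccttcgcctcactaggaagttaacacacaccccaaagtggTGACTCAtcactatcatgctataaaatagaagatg
Mmp12 (chr9:7347274-7347373, + strand): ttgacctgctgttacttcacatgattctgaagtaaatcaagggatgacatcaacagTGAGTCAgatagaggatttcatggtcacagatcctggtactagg
Mmp3 (chr9:7445722-7445821, + strand): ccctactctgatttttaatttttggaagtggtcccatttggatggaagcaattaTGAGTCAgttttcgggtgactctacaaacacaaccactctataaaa
Mmp10 (chr9:7502242-7502341, + strand): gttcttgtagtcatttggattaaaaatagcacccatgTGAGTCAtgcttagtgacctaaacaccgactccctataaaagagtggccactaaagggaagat
Mmp7 (chr9:7691990-7692089, + strand): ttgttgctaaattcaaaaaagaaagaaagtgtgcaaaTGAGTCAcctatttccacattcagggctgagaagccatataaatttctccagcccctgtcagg
The motif began 35 bases before the start in Mmp13, 44 in Mmp12, 46 in Mmp3 and 63 in Mmp10 and Mmp7. For Mmp12 and Mmp7 another listed start has no match in its window. No match was found for Mmp8, Mmp27 or Mmp20. A match describes the letters in the window and is not a measured binding site.

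Mmp3, stromelysin-1 (chromosome 9, 7445822 to 7455975), had a lowest value of 116, a median of 270 and a highest of 589 CPM in Arf6Q67L tumours, and stood at 603, 59.5, 952 and 40.5 CPM in controls 1 to 4. Both the highest and the lowest of the 10 tumours were thus controls, and the Arf6Q67L tumours lay between them. The Arf6Q67L mean was 299 ± 180 CPM (SD, n = 6), the control mean 414 ± 444 CPM (SD, n = 4), and the log2 fold change -0.47 (SE 0.82, edgeR adjusted p = 0.863). It was 0.35 without control 3 and 0.74 in limma-voom.

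Mmp10, stromelysin-2 (chromosome 9, 7502352 to 7510240), stood at 623, 108, 330, 224, 124 and 13.8 CPM in Arf6Q67L tumours 1 to 6 and at 344, 15.3, 259 and 12.6 CPM in controls 1 to 4. In each group, tumours above 100 CPM stood beside tumours under 16 CPM. The log2 fold change was 0.59 (SE 1.08, edgeR adjusted p = 0.869), 0.02 without Arf6Q67L tumour 1 and 1.31 without control 1. The tumours with under 16 CPM were Arf6Q67L tumour 6 and controls 2 and 4.

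The same 3 tumours were the lowest for Mmp3, Mmp10, Mmp13 and Mmp8, and the values of Mmp13 and Mmp8, like those of Mmp12, Mmp9 and Mmp19 given next, were chosen for description after they were seen. Mmp13, collagenase-3 (chromosome 9, 7272514 to 7283331), had 11.9 CPM in Arf6Q67L tumour 6, 15.3 in control 4 and 22.1 in control 2, and lay between 23.2 and 181 CPM in the other 7. Mmp8, the neutrophil collagenase (7558456 to 7568485), was at 0.200, 0.403 and 0.692 CPM in Arf6Q67L tumour 6, control 4 and control 2, and between 2.37 and 13.8 CPM in the rest. Its promoter window held no match, and the part of the motif in the shared low values was not tested. Of the 7 tested cluster genes, Arf6Q67L tumour 6 and control 4 were among the 3 lowest tumours for 6 each and control 2 for 5, while control 1 was among the 3 highest for 7 of 7. Control 4 was among the 3 lowest for 14 of 18 tested Mmp genes, control 2 for 10 and Arf6Q67L tumour 6 for 9. Over 15 tested Adamts genes these counts were 8, 6 and 6, so low values in these tumours were not confined to the cluster. Control 1 was among the 3 highest for 11 of the 18 Mmp and 5 of the 15 Adamts genes. The share over all genes was not taken.

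Neutrophil markers, taken as a sum, did not rank the tumours as Mmp8 did. The summed level of 10 such markers was 17.0, 70.8, 90.7, 75.9, 28.9 and 9.55 CPM in Arf6Q67L tumours 1 to 6 and 240, 43.7, 74.0 and 56.5 CPM in controls 1 to 4, and 3 of the 10 stayed under 1 CPM in every tumour (Ly6g, Mpo and Elane). Arf6Q67L tumour 6 was thus lowest for the sum, as for Mmp8, but controls 2 and 4 stood above Arf6Q67L tumours 1 and 5. Single markers, picked after their values were seen, went different ways. S100a8, S100a9 and Retnlg were, like Mmp8, highest in control 1 (135, 46.5 and 5.33 CPM). They were also lowest in Arf6Q67L tumour 6 (1.46, 1.06 and 0 CPM), and stood at 2.68, 2.21 and 0.235 CPM in control 4. In control 2 they were at 4.31, 7.04 and 0.0943 CPM. S100a8 and S100a9 were thus higher there than in Arf6Q67L tumour 1 (3.11 and 2.30 CPM), unlike Mmp8. Ngp and Camp were instead highest in Arf6Q67L tumour 2 (8.47 and 3.14 CPM). Cxcr2, a chemokine receptor of neutrophils, was lowest in the same 3 tumours as Mmp8, at 0.372 CPM in Arf6Q67L tumour 6, 0.671 in control 4 and 1.01 in control 2. Csf3r, the receptor of granulocyte colony-stimulating factor, was highest in control 4 at 50.1 CPM, stood at 28.3 CPM in control 2 and was lower in every Arf6Q67L tumour (6.64 to 21.3 CPM) than in every control (1.28% of all genes were separated this way). Its adjusted p was 0.239 by edgeR and 0.0140 by DESeq2. Csf3r made up 50.1 of the summed 56.5 CPM in control 4 and 28.3 of 43.7 CPM in control 2. The part of neutrophils in the Mmp8 values was not tested.

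Mmp7, matrilysin (chromosome 9, 7692090 to 7699585), stood at 20.2, 3.90, 6.45 and 0.0671 CPM in controls 1 to 4, against a lowest value of 0.0276, a median of 0.633 and a highest of 3.93 CPM in Arf6Q67L tumours. A value of 0.0276 CPM is 1 read and lies under the floor of 3 reads. Its log2 fold change of -2.52 (SE 1.34, edgeR adjusted p = 0.496) was the lowest of the set and was -1.37 without control 1. Mmp12, macrophage elastase, was highest in control 1 (27.7 CPM) and lowest in control 2 (1.60 CPM), with Arf6Q67L tumours between 2.55 and 12.5 CPM. The macrophage marker sum was 1686 CPM in control 1 and 2958 CPM in control 2, and its part in the Mmp12 values was not tested.

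**Figure D4:**
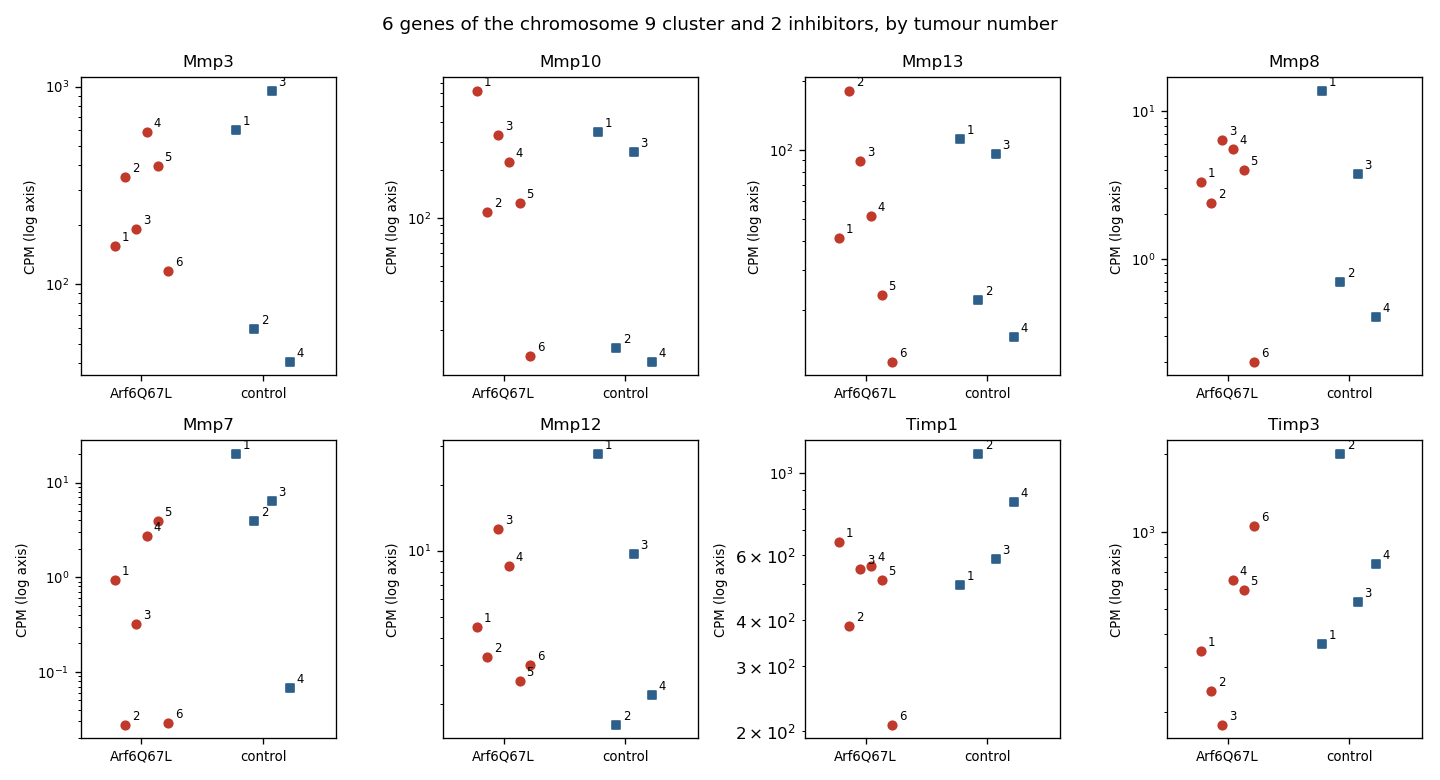
CPM on a log axis in each Arf6Q67L (red circles) and control tumour (blue squares) for Mmp3, Mmp10, Mmp13, Mmp8, Mmp7, Mmp12, Timp1 and Timp3, with numbers giving the tumour. Controls 2 and 4 and Arf6Q67L tumour 6 are at the bottom for Mmp3, Mmp10, Mmp13 and Mmp8 and are the 3 highest for Timp3.

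The gelatinases, which digest denatured collagen and basement membrane collagen, did not share a range. Mmp2 (chromosome 8, 92827291 to 92853420) had a lowest value of 435, a median of 479 and a highest of 718 CPM in Arf6Q67L tumours. In controls 1 to 4 it stood at 789, 542, 928 and 152 CPM, so that controls held both ends of the range. Its log2 fold change was -0.16 (SE 0.40, edgeR adjusted p = 0.908), 0.13 without control 3 and -0.48 without control 4. Mmp9, which granulocytes and macrophages also make, lay at far lower levels (4.21 CPM per kilobase against 167 for Mmp2), from 4.97 to 44.7 CPM in Arf6Q67L tumours and at 24.8, 4.43, 22.8 and 2.01 CPM in controls 1 to 4.

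Of the membrane-type enzymes Mmp14 had by far the highest level, 67.9 CPM per kilobase on average against 0.535 or less for Mmp15, Mmp16, Mmp17, Mmp24 and Mmp25. Mmp14, the activator of pro-MMP2 (chromosome 14, 54431612 to 54445364), had a lowest value of 376, a median of 421 and a highest of 567 CPM in Arf6Q67L tumours and stood at 408, 361, 362 and 238 CPM in controls 1 to 4. The groups overlapped, since Arf6Q67L tumours 4, 5 and 6 (389, 408.0 and 376 CPM) were below control 1 (408.1 CPM), tumour 5 only just. The Arf6Q67L mean was 446 ± 74.5 CPM (SD, n = 6) and that of controls 342 ± 72.8 CPM (SD, n = 4), which gave 0.38 as log2 fold change (SE 0.17, edgeR adjusted p = 0.423), which was 0.25 without control 4.

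Mmp15, another membrane-type enzyme (chromosome 8, 95352268 to 95375080), had the lowest p-value of the set. It was at 1.07, 1.75 and 2.66 CPM (lowest, median, highest) in Arf6Q67L tumours and at 3.85, 3.27, 4.69 and 2.11 CPM in controls 1 to 4. Only Arf6Q67L tumour 4, at 2.66 CPM, and control 4, at 2.11 CPM, overlapped. The log2 fold change was -0.97 (SE 0.29), for which edgeR gave an adjusted p of 0.285 and DESeq2 one of 0.0535. Endothelial markers, which were lower in Arf6Q67L tumours for 6 of 6 genes by fold change, summed to 66.4 to 257 CPM in Arf6Q67L tumours and 119 to 289 CPM in controls, with no marker at 0, and their part in the Mmp15 values was not tested.

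Mmp17, which is anchored by glycosylphosphatidylinositol (chromosome 5, 129584169 to 129611099), was at 0.862, 1.72 and 3.12 CPM (lowest, median, highest) in Arf6Q67L tumours and at 1.01, 0.723, 1.37 and 0.570 CPM in controls 1 to 4. Arf6Q67L tumours 3 and 4 lay within the control range and the other 4 above it. Its log2 fold change was 1.01 (SE 0.42, edgeR adjusted p = 0.403). Its highest tumours, Arf6Q67L 6 and 2 at 3.12 and 2.62 CPM, were also highest for the mast cell marker sum, whose part in the Mmp17 values was not tested. Mmp25, the leukocyte membrane-type enzyme, stood at 6.63 and 6.41 CPM in controls 2 and 4, against 1.98 and 1.69 CPM in controls 1 and 3 and 0.677 to 3.70 CPM in Arf6Q67L tumours (log2 fold change -1.10, SE 0.53, edgeR adjusted p = 0.458). Controls 2 and 4 were also the 2 tumours of highest macrophage and T cell marker sums, whose part in the Mmp25 values was not tested.

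Among the remaining Mmp genes above 5 CPM, Mmp19, a broad matrix protease, had the same mean in both groups, 121 ± 46.8 CPM in Arf6Q67L tumours (SD, n = 6) and 121 ± 72.04 CPM in controls (SD, n = 4). Its 3 lowest tumours were again control 4 (42.2 CPM), Arf6Q67L tumour 6 (46.8 CPM) and control 2 (79.2 CPM). Mmp11, stromelysin-3 of tumour stroma, ran from 14.5 to 55.1 CPM, Mmp23 from 7.09 to 22.98 CPM and Mmp28, epilysin, from 5.47 to 23.2 CPM over the 10 tumours, with groups that overlapped.

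Among the inhibitors, Timp1 (chromosome X, 20870166 to 20874735) had a lowest value of 208, a median of 532 and a highest of 649 CPM in Arf6Q67L tumours. Controls 1 to 4 stood at 498, 1126, 586 and 834 CPM, so that controls 2 and 4 were above every Arf6Q67L tumour and Arf6Q67L tumour 6 was below every other tumour. The log2 fold change was -0.67 (SE 0.32, edgeR adjusted p = 0.450) and -0.42 without control 2. Timp3, which is bound to the matrix (chromosome 10, 86300372 to 86349506), was at 345, 242, 178, 650, 597 and 1058 CPM in Arf6Q67L tumours 1 to 6 and at 366, 2013, 535 and 752 CPM in controls. Its 3 highest tumours, control 2, Arf6Q67L tumour 6 and control 4, were the 3 lowest for Mmp3, Mmp10, Mmp13 and Mmp8. Its log2 fold change was -0.84 (SE 0.57, edgeR adjusted p = 0.605) and -0.10 without control 2.

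Timp2, which inhibits MMP2 and also takes part in its activation by MMP14 (chromosome 11, 118301069 to 118355740), varied least of the 4. It had a lowest value of 596, a median of 897 and a highest of 1264 CPM in Arf6Q67L tumours and stood at 811, 719, 887 and 476 CPM in controls 1 to 4. The log2 fold change was 0.30 (SE 0.25, edgeR adjusted p = 0.690), and 0.15 without control 4. Timp4 (chromosome 6, 115241892 to 115252205) was under 1 CPM everywhere, with 88 reads in all, 0 reads in 2 tumours and a log2 fold change of -0.43 (SE 1.04, edgeR adjusted p = 0.907) whose direction did not hold (0.81 without control 4). Timp1, Timp3 and Timp4 overlap Syn1, Syn3 and Syn2, the synapsin genes, on the other strand, and no source used here states whether the counting used strand. Timp2 overlaps Cep295nl on the same strand. Of the 44 genes, 20 overlap another gene, and 19 overlap a gene on the other strand.

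Ratios of a stromelysin to Timp1 within a tumour spread widely among controls. The log2 ratio of Mmp3 to Timp1 was 0.28, -4.24, 0.70 and -4.36 in controls 1 to 4 and ran from -2.06 to 0.07 in Arf6Q67L tumours, so that controls lay both above and below all Arf6Q67L tumours. That of Mmp10 to Timp1 was -0.53, -6.20, -1.17 and -6.05 in controls and from -3.92 to -0.06 in Arf6Q67L tumours. The log2 ratio of Mmp2 to Timp2 was -0.70 ± 0.57 (SD, n = 6) and -0.51 ± 0.79 (SD, n = 4), and that of Mmp14 to Timp2 -0.96 ± 0.43 (SD, n = 6) and -1.07 ± 0.15 (SD, n = 4). For these last 2 ratios the groups differed by less than the spread between tumours. Gene length enters each ratio, so only differences between tumours can be read.

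Adamts1, which cleaves versican and aggrecan and inhibits angiogenesis (chromosome 16, 85793827 to 85803113), had the highest fold change of the set. It stood at 419, 503, 423, 198, 290 and 101 CPM in Arf6Q67L tumours 1 to 6 and at 274, 86.9, 126 and 104 CPM in controls 1 to 4. Arf6Q67L tumours 1, 2, 3 and 5 were above every control, tumour 4 was below control 1 only, and tumour 6 lay below controls 1, 3 and 4. The mean was 322 ± 153 CPM in Arf6Q67L tumours (SD, n = 6) and 148 ± 85.6 CPM in controls (SD, n = 4), and the log2 fold change 1.12 (SE 0.48, edgeR adjusted p = 0.407). It ran from 0.94 without control 2 to 1.61 without control 1. The DESeq2 adjusted p was 0.218.

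Adamts8, another enzyme with antiangiogenic activity (chromosome 9, 30942562 to 30963838), was at 0.887, 1.11 and 1.5 CPM (lowest, median, highest) in Arf6Q67L tumours and at 0.380, 0.472, 0.423 and 1.07 CPM in controls 1 to 4. Arf6Q67L tumours were above controls 1 to 3 in 6 of 6 cases, and control 4 lay inside their range. The log2 fold change was 1.0 (SE 0.34, edgeR adjusted p = 0.341), and it ran from 0.84 without control 1 to 1.47 without control 4. It rests on 319 reads over all 10 libraries and overlaps an antisense gene.

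**Figure D5:**
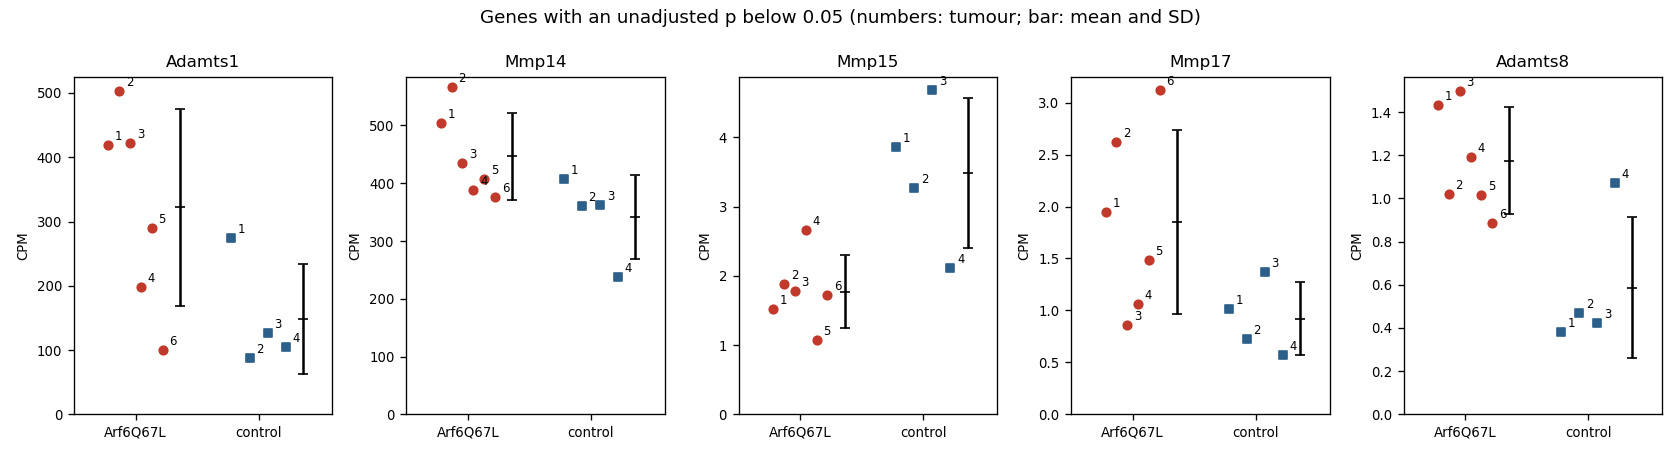
CPM of Adamts1, Mmp14, Mmp15, Mmp17 and Adamts8, the 5 genes with an unadjusted p below 0.05, in each Arf6Q67L (red circles) and control tumour (blue squares); numbers give the tumour and black bars the mean and SD. For each gene at least 1 control lies within the range of the Arf6Q67L tumours, as control 4 does for Adamts8 at 1.07 CPM.

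The other Adamts genes gave no unadjusted p below 0.05. The most abundant of them were Adamts14, a procollagen N-proteinase, at 118 to 340 CPM, and Adamts7, a protease of COMP, at 58.9 to 185 CPM over the 10 tumours. Adamts7 was even in Arf6Q67L tumours (146 ± 13.97 CPM, SD, n = 6), while controls stood at 179, 88.9, 185 and 58.9 CPM. Adamts2, also a procollagen N-proteinase, and Adamts4 and Adamts5, the aggrecanases, stood at 39.2, 25.7 and 11.7 CPM on average in Arf6Q67L tumours and at 40.4, 29.04 and 13.6 CPM in controls. Adamts10, which is tied to fibrillin microfibrils, ranged least of the 37 genes, from 35.6 to 58.7 CPM. Adamts20, known for its role in melanoblast survival and coat colour, was at 9.26, 1.73, 2.5 and 0.537 CPM in controls 1 to 4 and 0.110 to 3.29 CPM in Arf6Q67L tumours (log2 fold change -1.52, SE 0.92, edgeR adjusted p = 0.561), and its value was -0.37 without control 1.

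Related genes of pericellular proteolysis were read from the same fit. Of 6 lists, 0 members passed in edgeR (percent called over all genes 0), and 2 genes had an adjusted p below 0.05 in DESeq2, both higher in Arf6Q67L tumours (0.871% of all genes were). Of 11 ADAM proteases, 6 were positive and 5 negative at a median log2 fold change of 0.07. Adam22, a catalytically inactive ADAM that binds LGI proteins, stood at 26.6, 31.1, 5.84, 9.75, 34.6 and 24.9 CPM in Arf6Q67L tumours 1 to 6 and 6.80, 6.41, 7.58 and 3.39 CPM in controls. It was above all controls in 5 of 6 tumours (log2 fold change 1.87, SE 0.50, adjusted p = 0.273 in edgeR and 0.0109 in DESeq2).

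Reck, a membrane-anchored inhibitor of MMP2, MMP9 and MMP14 (chromosome 4, 43875530 to 43944806), was the other. It stood at 7.76 CPM at the lowest in Arf6Q67L tumours and 7.75 CPM at the highest in controls. The groups thus only just separated, as did 1.15% of all genes in this direction. The Arf6Q67L mean was 11.6 ± 3.60 CPM (SD, n = 6), the control mean 6.39 ± 1.22 CPM (SD, n = 4) and the log2 fold change 0.86 (SE 0.25, adjusted p = 0.283 in edgeR and 0.0423 in DESeq2). In its list of inhibitors, activators and inducers, 4 of 7 tested members were positive at a median of 0.15, and 1 of the negative ones was Pcsk6, a proprotein convertase. Pcsk6 stood at 0.623, 0.717, 1.05, 2.54, 0.130 and 0.686 CPM in Arf6Q67L tumours 1 to 6 and at 1.67, 5.66, 1.80 and 2.52 CPM in controls 1 to 4, with Arf6Q67L tumour 4 inside the control range. Its log2 fold change of -1.61 (SE 0.65, edgeR adjusted p = 0.389) was -1.06 without control 2 and -2.18 without Arf6Q67L tumour 4.

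In the plasminogen system, a second protease cascade that feeds into MMP activation, 3 of 9 tested genes were positive at a median of -0.04. Plau, which encodes urokinase, stood at 3059 CPM in Arf6Q67L tumour 1, the tumour of highest Mmp10, and at 284 to 1171 CPM in the other 5, against 726, 484, 881 and 395 CPM in controls 1 to 4. Its log2 fold change of 0.94 (SE 0.56, edgeR adjusted p = 0.556) was 0.39 without that tumour. Of 13 tested matrix proteases of other classes 4 were positive at a median of -0.15. Among them Ctss, a cathepsin of antigen-presenting cells, had a log2 fold change of -1.19 (SE 0.44, edgeR adjusted p = 0.364), and of -0.69 without control 4. It stood at 787 and 1263 CPM in controls 2 and 4, the tumours of highest macrophage marker sum, whose part in the Ctss values was not tested.

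The ADAMTS-like proteins, which lack the protease domain, were positive in 6 of 7 tested genes at a median of 0.21, the exception being Adamtsl1 (-1.01, SE 0.45, edgeR adjusted p = 0.423). Adamtsl1 stood at 27.7, 22.7, 3.42, 22.2, 13.9 and 19.9 CPM in Arf6Q67L tumours 1 to 6 and at 28.98, 28.7, 36.6 and 52.7 CPM in controls 1 to 4. The groups only just separated, between Arf6Q67L tumour 1 and control 2, as did 1.28% of all genes in this direction. Substrates of ADAMTS proteases were positive in 4 of 6 tested genes at a median of 0.46. Acan, which encodes aggrecan, had the lowest p of these (2.52, SE 1.55, edgeR adjusted p = 0.567) and rested on Arf6Q67L tumour 4, at 7.80 CPM, since without it the value was 1.01.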

How the data were processed

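The values are raw counts per gene in 10 libraries, as deposited by the authors. A Qiagen column kit and a TruSeq Stranded mRNA preparation were used, per the labels' protocols. The submitters' processing notes list GRCm38 as build and the tools STAR 2.5.2b, featureCounts 1.5.1 and DESeq2 1.18.0, but not what each one did. The strand setting and the handling of multi-mapped reads were not given in the sources used here. Symbols (52489 of 52636 identifiers), coordinates and exon lengths came from GENCODE annotation of GRCm38. The genes and lists were chosen with earlier results of these data known.

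All genes were fitted in R 4.3.3 by edgeR 4.0.16, after filterByExpr at minimum count 10: TMM factors, glmQLFit with the robust option, glmQLFTest with genotype as the term, and Benjamini-Hochberg adjustment over 17286 genes at 0.05. The SE is the log2 fold change over the root of F. DESeq2 1.42.0, limma 3.58.1 (voom with quality weights), other size factors, other filters and leaving out each tumour were alternatives. The edgeR and DESeq2 steps were tested on simulated data.

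Tumours are numbered in accession order. Genotype follows library order (1 to 6 and 9 to 12), so these cannot be told apart. P-values set the difference between genotypes against the spread between these tumours. They treat the tumours as independent, and whether any came from the same animal is not stated. The sample titles carry a different number for each tumour, without saying what it numbers. No library was a repeat of another: within a group the chi-square per gene between libraries was 75.6 or more. A count of 0 allows 3 counts, 0.0734 to 0.105 CPM by library, for counting error only.

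Values by tumour are given for genes of the set with an unadjusted p below 0.05, groups that do not overlap or a DESeq2 call, the 8 highest per kilobase and the Timp genes. In each related list the gene of lowest p and those with p below 0.05 are named, within a limit of 4. How many to name there, and the remaining genes named, were settled after values were seen.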

Additional observations from a re-analysis of the deposited data

Results flagged for a closer look

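Of 74 groups examined (37 genes in each genotype), 2 held a tumour far from the others by Dixon's ratio on log2 CPM, and chance flags about 1 in 20 groups. Mmp8 was low in Arf6Q67L tumour 6, at 0.200 CPM (ratio 0.697). Adamts6, whose protease is known from heart development, was high in Arf6Q67L tumour 3, at 45.7 CPM (ratio 0.66), above all 4 controls.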

How the results depend on the processing

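With other size factors, other filters, limma-voom, DESeq2 and each tumour left out in turn, 0 of the genes of the set passed the adjusted threshold in either direction. In DESeq2 2 related genes were called higher (Adam22 and Reck), against 0 in edgeR. The number of genes with an unadjusted p below 0.05 depended on single tumours: 4 were higher with all tumours, 1 without Arf6Q67L tumour 1, Arf6Q67L tumour 2 or control 4, 2 without Arf6Q67L tumour 5 or control 2 or with the stricter filter, and 5 without control 3. These are counts and do not say which genes passed. The count of lower genes, 1 with all tumours, was 2 or 3 in 8 settings, 3 without Arf6Q67L tumour 3 or control 1. Fold changes were followed across settings only for part of the set and for some related genes. These were picked mainly by p-value, by level or as Timp genes. Their directions changed in 5 of 324 values, and the remaining genes of the set were not followed. Mmp3 went to 0.74 and Timp4 to 1.67 in limma-voom. With single tumours left out, Mmp2 ran from -0.48 (without control 4) to 0.13 (without control 3), Mmp3 from -0.85 (without control 4) to 0.35 (without control 3) and Timp4 from -0.83 (without control 2) to 0.81 (without control 4). The cause was not tested. No paired analysis was possible because the labels give no numbers that pair tumours. Low counts limit Mmp7, Mmp15, Mmp17, Timp4 and Adamts8.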
